A study of Mus musculus with 3 samples.

Results

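A set of 10 genes of the neuromuscular synapse and of the muscle response to denervation were followed: the acetylcholine receptor subunit genes Chrna1, Chrnb1, Chrnd, Chrne and Chrng, the synaptic kinase gene Musk and its adaptor gene Dok7, and Runx1, Ncam1 and Hdac4, which are known to rise in denervated muscle. They were chosen by gene symbol, and all 10 were found, each on 1 of the 24481 gene rows. The animals were ICR mice, which are outbred, sampled on postnatal day 42, and the tissue was skeletal muscle. There were 3 libraries, 1 each of an exercise group given SQH (labelled Exercise SQH), an exercise group without it (Exercise Control) and a group labelled only as Control, against which the exercised groups were set. The title of the study concerns fatigue and leaf extracts of the dwarf bamboo Sasa quelpaertensis. The labels give neither the muscle sampled, the exercise, the SQH dose, the sex, nor whether a library holds 1 animal or a pool, and they do not say what SQH stands for.

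The muscle acetylcholine receptor is a channel of alpha, beta, delta and either epsilon or gamma subunits that sits opposite the motor nerve ending. The gamma subunit belongs to fetal and denervated muscle and is replaced by epsilon at the mature synapse. Nerve-derived agrin acts through the receptor LRP4 on the kinase MuSK, which with DOK7 gathers receptors under the nerve ending. Electrical activity keeps receptor genes silent along the rest of the fibre, and loss of the nerve lifts this block through histone deacetylases such as HDAC4 and the myogenic factor myogenin. In whole muscle RNA, fewer cells of a type and less RNA per cell cannot be told apart.

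Promoters are shown for Chrna1, the subunit gene with the largest spread among those past the expression minimum, for Chrnb1, which had the same order of libraries with a smaller spread, for Chrne, whose level was flat, and for Musk. The sequences are RefSeq's for GRCm38.p6, from 250 bases before to 50 bases after the annotated start, and 8 of the 10 genes had one. Capitals mark the E-box CANNTG, a motif that myogenic factors such as myogenin can bind, and the core CCGGAA of the N-box, a motif that ETS-family factors can bind. Both strands were searched, and no E-box overlapped an N-box core here.
Chrna1 (chr2:73580289-73580588, minus strand): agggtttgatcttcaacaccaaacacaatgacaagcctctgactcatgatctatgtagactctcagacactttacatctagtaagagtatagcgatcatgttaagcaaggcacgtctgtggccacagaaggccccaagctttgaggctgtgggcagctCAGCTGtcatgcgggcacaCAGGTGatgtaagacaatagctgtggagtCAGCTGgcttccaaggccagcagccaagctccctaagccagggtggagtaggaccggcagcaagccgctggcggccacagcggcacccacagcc
Chrnb1 (chr11:69795888-69796187, minus strand): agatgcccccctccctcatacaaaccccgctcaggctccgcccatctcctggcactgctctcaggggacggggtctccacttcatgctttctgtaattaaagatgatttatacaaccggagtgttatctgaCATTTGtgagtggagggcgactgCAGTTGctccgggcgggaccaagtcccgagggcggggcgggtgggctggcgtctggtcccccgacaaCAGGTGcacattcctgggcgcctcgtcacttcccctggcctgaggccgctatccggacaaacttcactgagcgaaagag
Chrne (chr11:70619145-70619444, minus strand): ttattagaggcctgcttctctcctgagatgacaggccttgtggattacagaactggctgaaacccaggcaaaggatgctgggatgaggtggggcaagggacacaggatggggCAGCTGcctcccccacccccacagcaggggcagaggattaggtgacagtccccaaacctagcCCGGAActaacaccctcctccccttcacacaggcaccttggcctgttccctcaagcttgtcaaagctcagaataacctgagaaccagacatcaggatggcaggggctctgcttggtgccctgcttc
Musk (chr4:58285712-58286011, plus strand): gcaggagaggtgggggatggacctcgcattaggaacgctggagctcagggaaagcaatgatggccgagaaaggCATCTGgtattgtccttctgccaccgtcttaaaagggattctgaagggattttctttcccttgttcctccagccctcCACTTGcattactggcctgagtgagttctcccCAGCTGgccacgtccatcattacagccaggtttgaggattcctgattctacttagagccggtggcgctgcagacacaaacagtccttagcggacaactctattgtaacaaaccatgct
Chrna1 held 3 E-boxes, starting 92, 73 and 44 bases before its start, Chrnb1 and Musk held 3 each, and Chrne held 1. Of all 32851 promoters of this length, 72.3% held an E-box and 17.6% held at least 3. Chrne alone of these 4 held the N-box core, 76 bases before its start, and 14.9% of all promoters held it. The matches describe the letters of these windows only.

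The values were log2 levels made by the authors, and libraries were compared by size, because 1 library per group leaves no replicate error and no test. A gene was called when its levels differed by at least 1 on the log2 scale, which is 2-fold, and its mean linear level over the 3 libraries reached 66.5, the median of the 15714 rows above 0 in any library. That left 7857 rows tested, with 6 of the 10 genes among them. Read numbers were estimated from the spacing of the low values and are approximate, at 12.4 M in Exercise SQH, 8.13 M in Exercise Control and 10.8 M in Control. The error beside a difference is the standard error of counting those reads, and the intervals are 95% counting intervals; neither covers variation between animals or preparations. All 11 genes that define skeletal muscle here, such as Ckm and Acta1, were present in each library. The Exercise Control library stood apart: its slow-fibre contractile genes lay far below both others and its Schwann cell markers past the expression minimum above both. It enters 2 of the 3 comparisons, so results that share it are not independent.

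**Figure D1:**
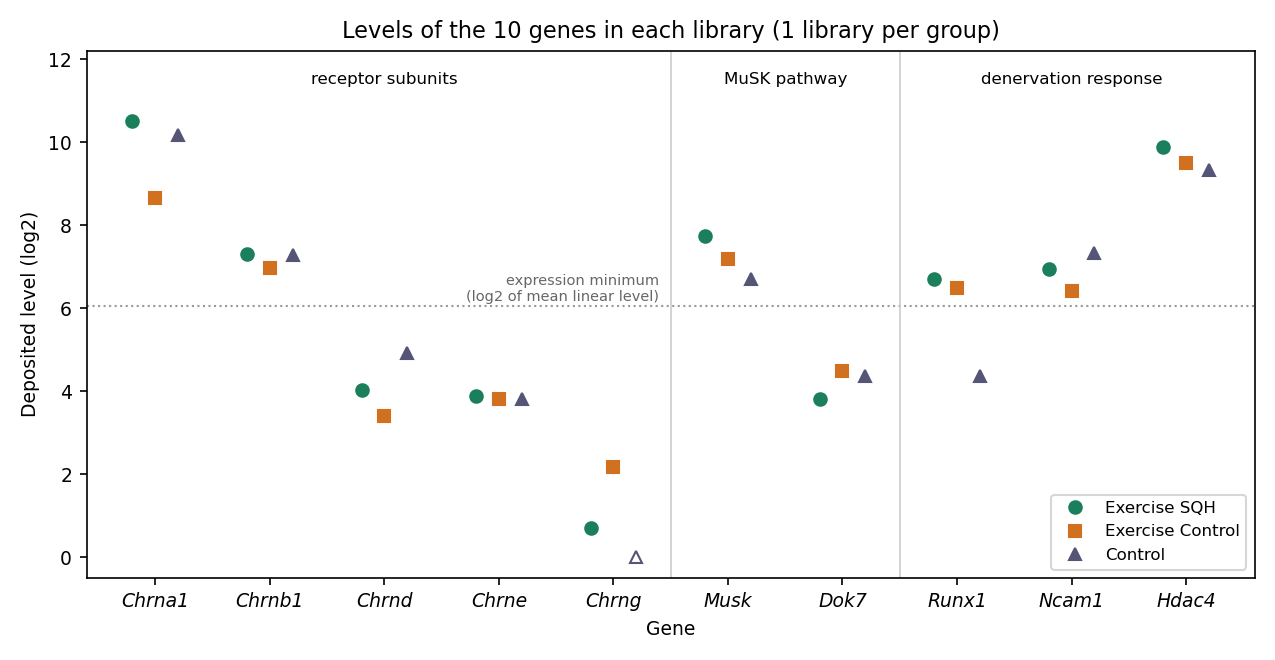
Deposited log2 level (vertical axis) of each of the 10 genes (horizontal axis) in the 3 libraries, 1 symbol per library, with no replicates. Chrna1 dips in Exercise Control (8.66), Runx1 is low in Control (4.37), and Musk and Hdac4 step down through Exercise SQH, Exercise Control and Control; the open triangle is Chrng, listed at 0 in Control.

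Chrna1 encodes the alpha subunit, the one that carries the main acetylcholine binding surface. Its log2 level was 10.51 in Exercise SQH, 8.66 in Exercise Control and 10.17 in Control, or about 1897, 341 and 1224 reads. The Exercise Control library was thus the low one, with the other libraries near each other. Chrna1 was called lower in Exercise Control than in Control, by 2.85-fold (-1.51 ± 0.09), and called higher in Exercise SQH than in Exercise Control, by 3.61-fold (1.85 ± 0.08). Between Exercise SQH and Control it differed by 0.34 ± 0.05, below the size that counts, with a counting interval of 0.24 to 0.45. Its spread of 1.85 over the libraries was reached by few of the rows tested (1.96%), whose median spread was 0.48. The gene lies on chr2:73563215-73580338 (GRCm38, minus strand), and no other annotated gene shares its exons.

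The low Chrna1 level came from the library whose fibre-type and nerve markers also differed. All 13 slow-fibre contractile genes lay below Control there, 12 of them called lower, with a median difference of -3.48, and their summed linear level was 49732 in Exercise Control against 564789 in Control. Of 6 Schwann cell markers past the minimum, 6 were called higher than in Control, with a median of 1.51, and the 20 listed markers summed to 4772 in Exercise Control against 1461 in Control. In Exercise Control against Control 5.33% of all rows tested were called lower and 2.95% higher. Fabp7 and Gfap were listed at 0 in both of these libraries and Cdh19 in Control. The markers below the minimum did not share 1 order. Prx was at 5.24 in Exercise SQH, 6.87 in Exercise Control and 5.16 in Control. Mal was highest in Control, at 3.52, 5.16 and 5.64 in the same order. Sox10 (4.2, 3.5 and 0.9) and Egr2 (4.5, 3.0 and 0.9) were highest in Exercise SQH. Against Exercise Control, Exercise SQH had a slow-fibre median of 3.22 and a Schwann cell median of -1.55. The part of fibre type and of nerve content in the Chrna1 difference was not tested.

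Chrnb1, the beta subunit gene, followed the same order within a much narrower range. Its log2 level was 7.31 in Exercise SQH, 6.96 in Exercise Control and 7.28 in Control. It was not called in any comparison, with -0.31 ± 0.18 for Exercise Control minus Control, 0.35 ± 0.17 for Exercise SQH minus Exercise Control and 0.04 ± 0.15 for Exercise SQH minus Control. A spread of 0.35 or more was found in 67.8% of the rows tested. Chrna1 therefore stood 9.18-fold above Chrnb1 in Exercise SQH, 3.24-fold in Exercise Control and 7.43-fold in Control on the linear scale. These libraries count transcript ends, so levels of different genes are not scaled by transcript length, but how well each annotated end captures reads is unknown.

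Chrnd, the delta subunit gene, was close to the detection limit and below the expression minimum. It had a log2 level of 4.04 in Exercise SQH, 3.41 in Exercise Control and 4.92 in Control, from about 21, 9 and 32 reads. Exercise Control was again the lowest library, but here Exercise SQH lay below Control. Exercise Control minus Control was -1.51 ± 0.55, with a counting interval of -2.75 to -0.39, and Exercise SQH minus Exercise Control was 0.63 ± 0.57, whose interval of -0.59 to 1.91 includes 0.

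Chrne, the adult epsilon subunit gene, had the flattest profile of the 10, at 3.89 in Exercise SQH, 3.82 in Exercise Control and 3.82 in Control. The levels rest on about 19, 12 and 15 reads, and the counting interval for Exercise Control minus Control reaches from -1.21 to 1.21, so a 2-fold change was not detectable at this depth. Chrng, the fetal gamma subunit gene, was listed at 0.69 in Exercise SQH, 2.16 in Exercise Control and 0 in Control. That is about 2 and 4 reads in the exercised libraries, while a 0 in Control stands for at most 1 read. The counting interval for Exercise SQH minus Exercise Control, -5.09 to 1.18, gives no order to those libraries. Chrnd and Chrng lie side by side on chromosome 1, at chr1:87190607-87200070 and chr1:87204657-87212694 on the plus strand.

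Summed over the 5 subunit genes, the linear level was 1649 in Exercise SQH, 558 in Exercise Control and 1350 in Control. Chrna1 made up 88.4% of this sum in Exercise SQH (exact binomial interval from the approximate reads 87.0 to 89.7%), 72.4% in Exercise Control (68.1 to 76.4%) and 85.2% in Control (83.3 to 87.0%). Chrnb1 made up 9.62%, 22.3% and 11.5% in the same order of libraries. The sum therefore tracked Chrna1, and the mixture of subunit transcripts differed most in Exercise Control.

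**Figure D2:**
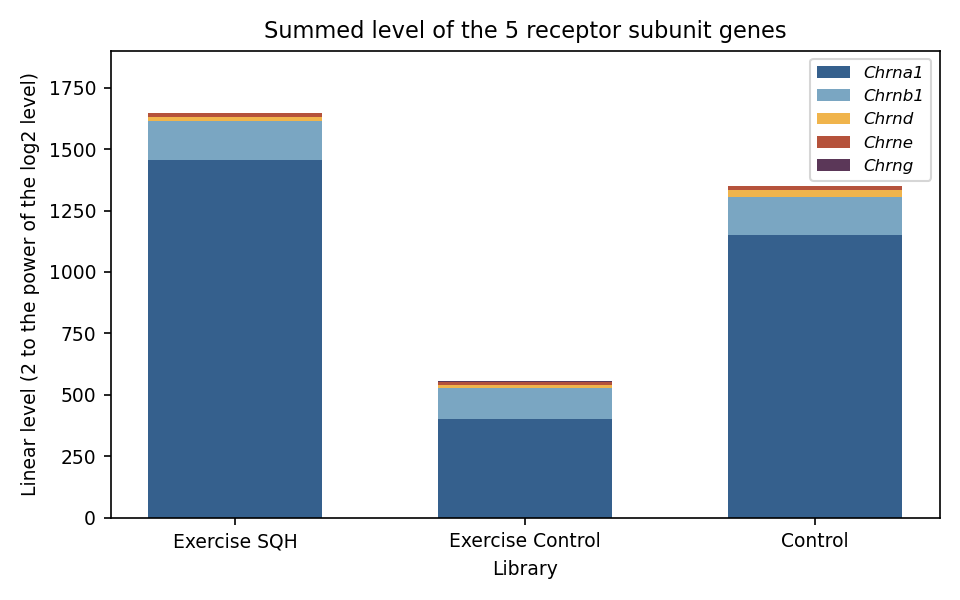
Linear level (vertical axis) of the 5 receptor subunit genes stacked for each library (horizontal axis), 1 library per group and no error bars. The bar of Exercise Control (558) is shorter than those of Exercise SQH (1649) and Control (1350), nearly all of it through Chrna1; Chrnd, Chrne and Chrng are thin bands at the top.

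Musk, the gene of the kinase that organises the postsynaptic membrane, was highest with exercise and SQH. Its log2 level was 7.73 in Exercise SQH, 7.18 in Exercise Control and 6.69 in Control, from about 276, 122 and 110 reads. Exercise SQH stood above Control by 1.04 ± 0.16, or 2.05-fold, and was called, just inside the size that counts. With libraries centred on their medians the same difference was 0.996 and was not called. Exercise Control lay between, 0.49 ± 0.19 above Control and 0.55 ± 0.16 below Exercise SQH, neither called, although the counting intervals of both differences exclude 0. Musk lies on chr4:58285960-58374303 (plus strand), with no exonic overlap with another annotated gene.

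Dok7, whose protein binds and activates MuSK, did not share that order. It was listed at 3.81 in Exercise SQH, 4.48 in Exercise Control and 4.37 in Control, each from 18 to 22 reads, below the expression minimum. Exercise SQH was its lowest library, but the counting interval for Exercise SQH minus Control, -1.57 to 0.38, includes 0.

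Runx1, a transcription factor gene that is nearly silent in innervated muscle and induced by denervation, had the widest spread of the 10. Its log2 level was 6.69 in Exercise SQH, 6.49 in Exercise Control and 4.37 in Control, from about 135, 76 and 22 reads. Both exercised libraries thus stood above Control and close to each other. Runx1 was called higher in Exercise Control than in Control, by 4.36-fold (2.12 ± 0.35), and in Exercise SQH than in Control, by 5.01-fold (2.33 ± 0.33). The difference between the exercised libraries was 0.20 ± 0.21. Its mean linear level of 71.4 passed the minimum of 66.5 through the exercised libraries, so a gene like this had to differ in order to be tested. A spread as wide as that of Runx1 was found in 1.11% of the rows tested.

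Runx1 is also a blood cell gene. Of 11 haematopoietic markers found, haemoglobin Hba-a1 was level, at 12.80 in Exercise SQH, 12.88 in Exercise Control and 12.84 in Control. The leukocyte gene Ptprc was listed at 3.07 in Exercise SQH, 0 in Exercise Control and 2.90 in Control, and the macrophage receptor gene Csf1r at 6.53, 4.95 and 5.04 in the same order. The macrophage genes Adgre1 and Cd68 were listed at 0 and 3.80 in Exercise SQH, 3.05 and 1.28 in Exercise Control, and 1.49 and 0.89 in Control, and Lyz2 at 2.80, 3.24 and 2.91. These markers did not share 1 order of the libraries, and those other than Hba-a1 and Csf1r rest on few reads. The 11 markers summed to a linear level of 8973, 9024 and 9322. Nearly all of this was haemoglobin, with Hba-a1 at 7132 and Hbb-bs at 1708 in Exercise SQH, so the sum does not follow leukocyte genes. Csf1r rested on about 120, 26 and 35 reads in the same order of libraries. Cd3e was listed at 0 in every library. The part of blood cells in the Runx1 level was not tested. An antisense gene of another symbol, Gm26626, shares 106 exonic bases with Runx1 but does not cover its annotated 3' end. Runx1 lies on chr16:92601466-92826149 (minus strand).

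Ncam1, a cell adhesion gene that spreads along the fibre after denervation, lay below Control in both exercised libraries, where Runx1 lay above it. Its log2 level was 6.93 in Exercise SQH, 6.42 in Exercise Control and 7.33 in Control, so that Exercise Control was lowest and Control highest. Exercise Control minus Control was -0.91 ± 0.20, just outside the size that counts, and Exercise SQH minus Control was -0.39 ± 0.16. The Ncam1 level minus that of Runx1 was 0.24 in Exercise SQH, -0.07 in Exercise Control and 2.96 in Control on the log2 scale. Gm11149, an antisense gene, shares 417 exonic bases with Ncam1 away from its annotated 3' end. It was listed at 2.65 in Exercise SQH, 0 in Exercise Control and 3.51 in Control. That is the same order as Ncam1, but at levels near the floor and far below those of Ncam1. Unless the counting used strand, reads of Gm11149 there cannot be told from those of Ncam1. Ncam1 is also made by Schwann cells and satellite cells. It was lowest in the library where the Schwann cell markers past the minimum were highest. The satellite cell gene Pax7 was lowest there too, at 6.34 in Exercise SQH, 5.80 in Exercise Control and 6.74 in Control. Of 6 satellite cell and myoblast markers past the minimum, 4 lay below Control in Exercise Control and 2 above, with a median of -0.50. Chodl was the 1 called there, at 10.35 against 9.20 in Control, where 8.29% of all rows tested were called. Sdc4 was called higher in Exercise SQH than in Exercise Control (1.10 ± 0.07), and Cdh15 higher than in Control (1.49 ± 0.25), where 8.01% and 3.02% were called. The part of these cells in the Ncam1 level was not tested.

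Hdac4, the gene of a class II histone deacetylase that represses the repressors of receptor genes in denervated muscle, was the most abundant of the 10 in Exercise Control and second to Chrna1 in the other libraries. Its log2 level was 9.89 in Exercise SQH, 9.49 in Exercise Control and 9.32 in Control, from about 1236, 607 and 679 reads. The libraries had the same order as for Musk. Exercise SQH stood 0.57 ± 0.07 above Control, a factor of 1.49, and 0.40 ± 0.07 above Exercise Control, both beyond counting error and neither called. Gm26720, a non-coding gene on the opposite strand, shares 3536 exonic bases with Hdac4 away from its annotated 3' end, and strand handling is not given in the sources used here. At 40.4% of the rows tested, a spread of this size was common.

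**Figure D3:**
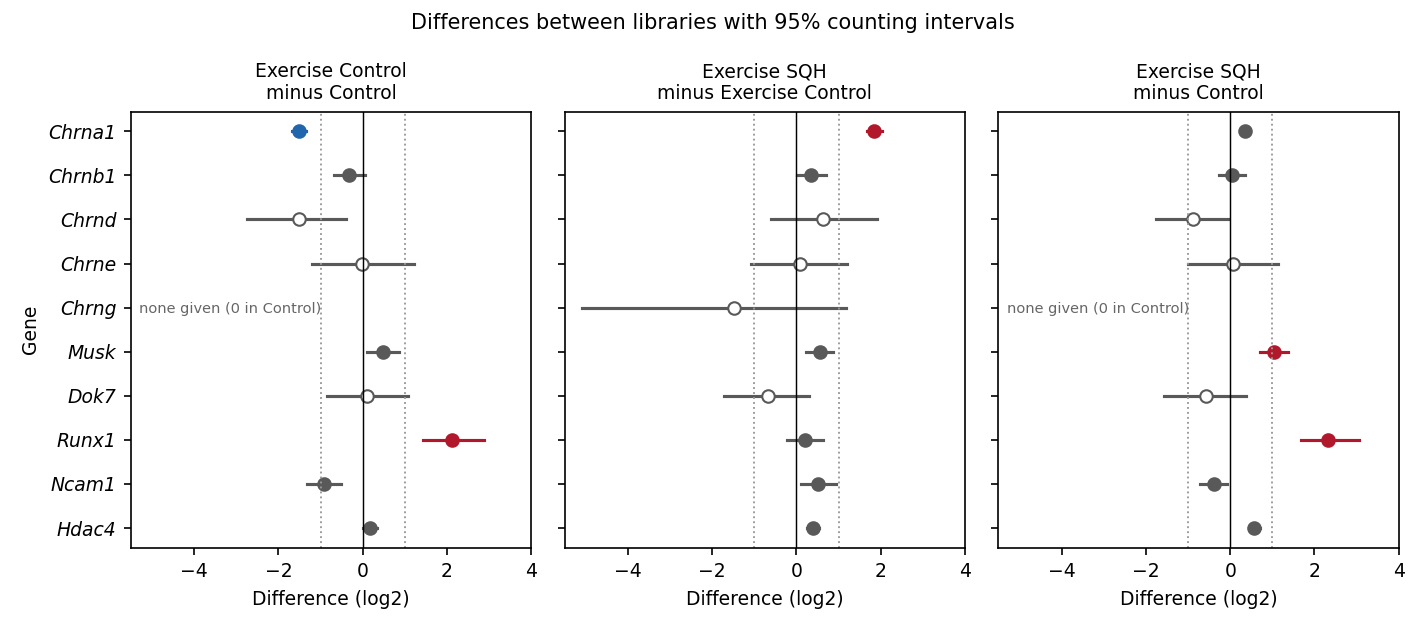
Difference in log2 level (horizontal axis) for each gene (vertical axis) in the 3 comparisons, with 95% counting intervals as bars, filled points for genes past the expression minimum and dotted lines at the 2-fold size. Chrna1 is lower in Exercise Control (-1.51) and higher in Exercise SQH against Exercise Control (1.85); Runx1 (2.12 and 2.33) and Musk (1.04) are higher against Control.

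Exercise Control against Control compares the exercised library without SQH with the Control library. Of the 10 genes 1 was called higher (Runx1) and 1 lower (Chrna1), where 8.29% of all rows tested were called, 2.95% higher and 5.33% lower, and 6 of the 10 could be called. The rows called were 232 higher and 419 lower, or 293 and 350 with equal sums after leaving out ribosomal precursor RNA. The median difference of the 9 genes with a value above 0 in both libraries was 0.00 (4 above 0 and 5 below), against -0.04 over all rows tested. The 9 include genes below the expression minimum, and the median of the 6 past it was -0.07. Of all rows tested 46.3% were above 0. As a list the 10 genes showed no common direction here.

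Exercise SQH against Exercise Control compares the exercised libraries with and without SQH, which also differed in slow-fibre and Schwann cell genes. Of the 10 genes 1 was called higher (Chrna1) and 0 lower, where 8.01% of all rows were called, 5.68% higher and 2.33% lower. The rows called were 446 higher and 183 lower, or 354 and 252 once libraries were centred. Of the 10 differences 8 were above 0, those below being Chrng and Dok7, where 52.1% of all rows tested were above 0. The 8 include Chrne (0.07), whose sign changed with scaling. The median was 0.37, against 0.03 over all rows tested, which became -0.07 with libraries centred on their medians. The 10 include genes below the expression minimum, whereas the rows tested do not. The 6 genes past it were all above 0, with a median of 0.46. The positive differences of Musk, Hdac4, Ncam1 and Chrnb1, between 0.35 and 0.55, were each smaller than 2-fold, with counting intervals that excluded 0. That of Chrnb1 did so barely, starting at 0.007, and its difference fell to 0.25 under another scaling.

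Exercise SQH against Control leaves out the Exercise Control library. Of the 10 genes 2 were called higher (Musk and Runx1) and 0 lower, where 3.02% of all rows tested were called, 1.76% higher and 1.26% lower. The rows called were 138 higher and 99 lower, or 168 and 75 with equal sums after leaving out ribosomal precursor RNA. The median difference of the 9 genes was 0.07, with 6 above 0 and 3 below, against -0.01 over all rows tested. The 9 include genes below the expression minimum, and the median of the 6 past it was 0.46. Of all rows tested 48.7% were above 0.

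Of 36 other genes of the postsynaptic apparatus 23 passed the minimum, and 0, 1 and 0 of them were called in Exercise Control against Control, Exercise SQH against Exercise Control and Exercise SQH against Control, where 8.29%, 8.01% and 3.02% of all rows tested were. The gene called was Lrp4, which encodes the agrin receptor. Lrp4 had a log2 level of 7.59 in Exercise SQH, 5.86 in Exercise Control and 6.75 in Control, and was called higher in Exercise SQH than in Exercise Control (1.73 ± 0.23). It followed the order of Chrna1. Rapsn, whose protein rapsyn anchors the receptors, was at 7.41, 7.13 and 7.59 in the same order of libraries and was not called. Agrn, the agrin gene, was at 7.59 in Exercise SQH, 8.11 in Exercise Control and 8.58 in Control, with Exercise SQH minus Control at -0.995 ± 0.12, just outside the size that counts. The list medians were -0.25 for Exercise Control minus Control, 0.03 for Exercise SQH minus Exercise Control and -0.06 for Exercise SQH minus Control. Colq, whose collagen tail anchors acetylcholinesterase at the synapse, was below the minimum and was listed at 5.81 in Exercise SQH, 0 in Exercise Control and 4.72 in Control, from about 73, 0 and 28 reads. Rapsn, Agrn and Colq are described besides the called genes and were chosen after their values were seen.

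Other genes known to change with denervation followed several orders of the libraries. Of 32 listed genes 31 were found and 24 passed the minimum. In Exercise Control against Control 4 were called higher and 2 lower, in Exercise SQH against Exercise Control 5 higher and 1 lower, and in Exercise SQH against Control 4 higher and 1 lower, with medians of -0.01, 0.43 and 0.21. All rows tested were called at 8.29%, 8.01% and 3.02% in those comparisons. Myog, the gene of myogenin, had the order of Chrna1, at 9.83 in Exercise SQH, 8.24 in Exercise Control and 9.11 in Control, and was called in Exercise SQH against Exercise Control (1.59 ± 0.10). Dach2, a repressor of Myog that is lost on denervation, was at 6.29 in Exercise SQH and 6.79 in Control, and called lower in Exercise Control than in Control (-1.79 ± 0.31). The calls of Lrp4, Myog and Dach2 all rest on Exercise Control, the library set apart by its slow-fibre and Schwann cell genes. Eda2r, a receptor gene, had the order of Runx1, at 7.94 in Exercise SQH, 7.94 in Exercise Control and 5.77 in Control. It was called against Control in Exercise Control (2.17 ± 0.21) and in Exercise SQH (2.18 ± 0.21).

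Further called genes of the denervation list did not share 1 order. Ankrd1, a stretch-responsive ankyrin repeat gene, was at 8.87 in Exercise SQH, 7.36 in Exercise Control and 6.25 in Control (2.62 ± 0.17 for Exercise SQH minus Control). Actc1, the cardiac actin gene re-expressed in denervated muscle, was lower in both exercised libraries, at 8.61 in Exercise SQH and 7.51 in Exercise Control against 11.00 in Control. Rrad, a small GTPase gene, was at 9.91, 8.22 and 8.53, and Mstn, the myostatin gene, at 7.27, 8.80 and 8.21, in Exercise SQH, Exercise Control and Control. Among the myogenic and MEF2 factors, 11 of 14 passed the minimum, and beside Myog only Myf6 was called, in Exercise SQH against Control (1.16 ± 0.16). All rows tested were called at 8.01% in the comparison that called Myog and at 3.02% in that of Myf6.

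**Figure D4:**
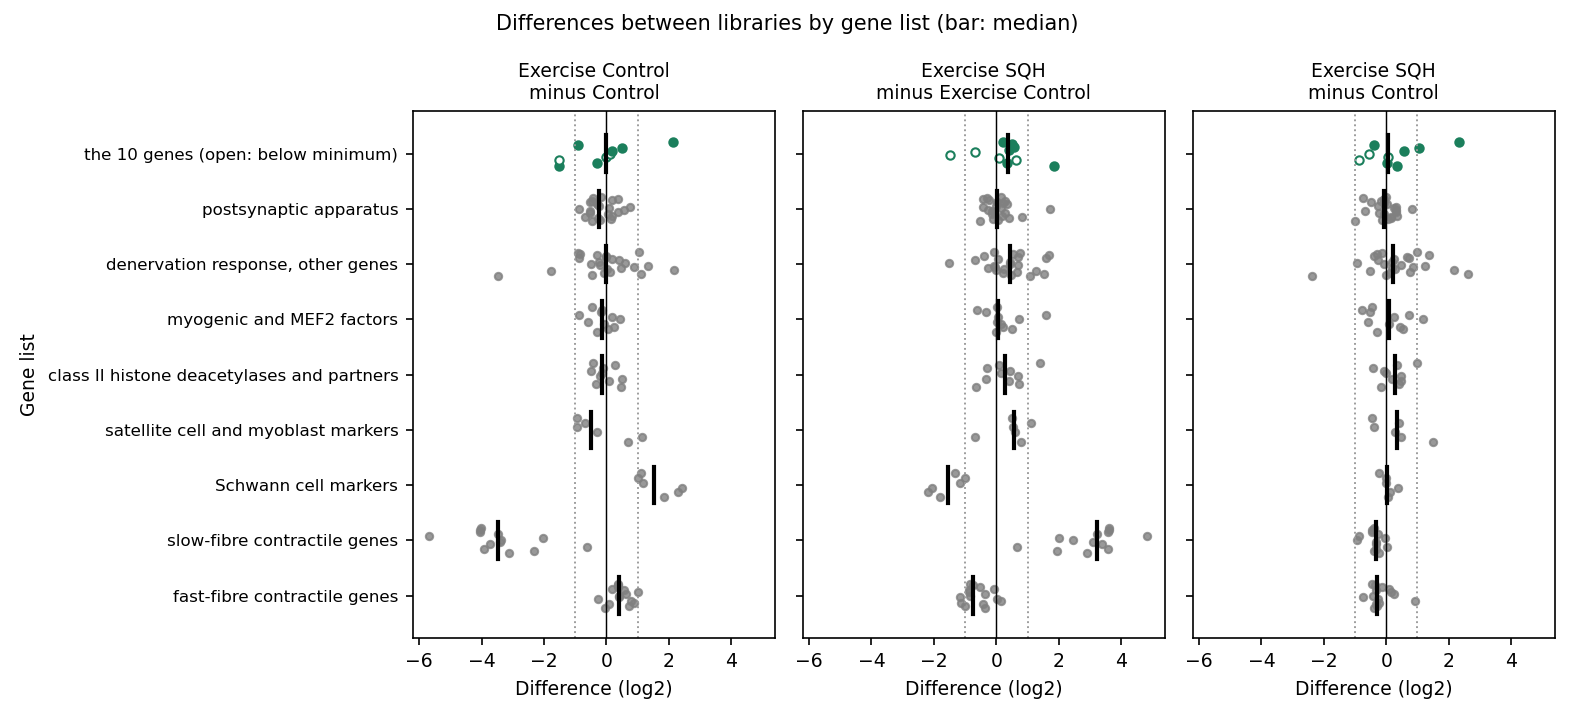
Difference in log2 level (horizontal axis) of the genes of each list (vertical axis) in the 3 comparisons, 1 point per gene, with the median as a black bar and dotted lines at 2-fold; lists other than the 10 genes show genes past the expression minimum. In Exercise Control against Control the 10 genes and the synaptic and denervation lists scatter around 0, while slow-fibre genes (median -3.48) and Schwann cell markers (median 1.51) shift as blocks. In Exercise SQH against Exercise Control the 10 genes (median 0.37) and the denervation list (median 0.43) lie mostly above 0.

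The genes with the profile nearest to Chrna1 were sought among 7454 tested rows by the Euclidean distance between log2 levels centred over the 3 libraries. They were Kdm1a, Zdhhc17, Rchy1, Cops7a and Etfa, at distances of 0.06 to 0.07. Kdm1a was at 7.49 in Exercise SQH, 5.71 in Exercise Control and 7.23 in Control. Those nearest to Runx1 were Eda2r (0.15), Pfkfb3 (0.23), Nr4a3 (0.26), Zfp503 (0.29) and Natd1 (0.39). With 3 libraries many genes share a profile, and the distances describe these libraries only.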

How the data were processed

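The deposited log2 levels were made by the authors from QuantSeq 3' libraries (Lexogen kit), per the labels' protocols, read on an Illumina NextSeq 500. Bowtie2, edgeR and mm10 appear in the submitters' processing notes, with neither role nor version. The log2 formula, counting tool, annotation and filters were not given in the sources used here. Linear levels are 2 to the power of the log2 level. In linear values up to 12, whole multiples of a step (0.768 in Exercise SQH, 1.19 in Exercise Control, 0.940 in Control) held 84.2%, 94.9% and 100.0% of values within 0.2 step, so reads are approximate and no count model was fitted. A call needed 2-fold and the expression minimum; with 1 library per group there is no test. Genes were named by rule: the 10 genes, and from each of 12 other lists (194 genes, 192 found) up to 3 called genes per comparison with the largest difference; 5 nearest profiles were taken for Chrna1 and Runx1. Outside this rule, Rapsn, Agrn, Colq, Pax7, Ptprc, Csf1r, Adgre1, Cd68, Lyz2, Hba-a1, Hbb-bs, Chrna2, Chrna4, Chrna10, Stmn2, Prph, Uchl1, Snap25, Syt1, Nefh, Nefm, Prx, Mal, Sox10, Egr2 and the marker and subunit genes listed at 0 were picked with their values in view. The members and lists were chosen with earlier results of these data known. Gene positions and overlaps are from GENCODE M21 (GRCm38, the assembly called mm10). Calls were checked on simulated data that held counting noise only, so the check does not cover variation between animals or preparations. Alternatives were other scalings, minimums, an added 8 linear units, and 1.5-fold and 3-fold sizes. Python 3.11.15, numpy 2.4.6, pandas 2.3.3 and scipy 1.17.1 were used.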

Additional observations from a re-analysis of the deposited data

How the results depend on the processing

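Both calls of Chrna1 and both of Runx1 were made again, in the same direction, under the 3 other scalings and with 8 linear units added, and no called gene of the text changed sign. The number of the 10 genes called in Exercise Control against Control was 2, but 4 with no expression minimum (Chrnd and Chrng added), 3 at 1.5-fold (Ncam1 added), 1 with the minimum at the 75th percentile (Runx1 lost) and 1 at 3-fold (Chrna1 lost). In Exercise SQH against Exercise Control it was 1, but 2 with no minimum, through Chrng. In Exercise SQH against Control it was 2, but 1 after centring, 1 with 8 linear units added and 1 at 3-fold, each through the loss of Musk, and 0 with the minimum at the 75th percentile, where Musk and Runx1 were not tested. All rows called were 651, 629 and 237 in the 3 comparisons in that order; they were 4259, 4196 and 3367 with no minimum, 233, 218 and 58 at the 75th percentile, 2012, 1888 and 1082 at 1.5-fold, and 167, 159 and 44 at 3-fold. The difference of Chrne in Exercise SQH minus Exercise Control changed sign with scaling (-0.11 to 0.07), and so did Chrnb1 in Exercise SQH minus Control (-0.01 to 0.10). No paired analysis was possible because each group has 1 library, and no library could be left out for the same reason. Depth limits Chrnd, Chrne, Chrng and Dok7, each at 32 reads or fewer per library.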

Other observations

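The neuronal acetylcholine receptor subunit genes were low. Of 11 listed genes only Chrna10 passed the expression minimum, at 8.01 in Exercise SQH, 8.17 in Exercise Control and 7.43 in Control. Chrna10 shares 1025 exonic bases with Art1 on the opposite strand, and Art1 covers its annotated 3' end. Art1 was far higher, at 11.60, 11.96 and 11.60 in the same order of libraries. Unless the counting used strand, reads listed for Chrna10 cannot be told from those of Art1. Chrna3, Chrna5, Chrna6, Chrna7, Chrnb2 and Chrnb3 were listed at 0 in every library, while Chrna2 was listed at 2.79 in Exercise SQH, 2.83 in Exercise Control and 2.49 in Control, and Chrna4 at 2.78, 0 and 3.37.

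Chat, Slc18a3, Slc5a7 and Nefl, which define cholinergic neurons or their axons, were listed at 0 in all 3 libraries, and of 11 axon markers only Stmn2 passed the minimum, at 6.41 in Exercise SQH, 6.42 in Exercise Control and 6.25 in Control. Prph, the gene of the axonal filament protein peripherin, was below the minimum. It was at 4.88 in Exercise SQH, 5.82 in Exercise Control and 4.30 in Control, highest where the Schwann cell markers past the minimum were. The other axon markers below the minimum with values above 0 were highest in Exercise SQH instead. In the same order of libraries, Uchl1 was at 6.059, 4.998 and 4.817, from about 87, 27 and 30 reads. Snap25 was listed at 3.893, 1.275 and 0, and Syt1 at 4.006, 1.856 and 0. Nefh was listed at 2.237, 0.289 and 1.495, and Nefm at 1.278, 0 and 0.922. These last genes rest on 21 reads or fewer per library. Among the class II histone deacetylases and their partners, 10 of 14 passed the minimum and only Sik1, a kinase gene, was called, at 8.22 in Exercise SQH against 6.82 in Exercise Control (1.40 ± 0.16). In that comparison 8.01% of all rows tested were called.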
